A study of Mus musculus with 25 samples.

Results

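Klf1, Gata1, Epor, Car1, Car2, Alas2, Slc4a1, Hba-a1 and Hba-a2 are genes of the red blood cell lineage, and their RNA was measured in preparations of mouse bone marrow neutrophils. They were picked by name from the gene-level count table, as 9 of the 35741 genes it lists. The rule of choice uses no measured value, but the 9 were chosen with earlier results of these data known. All 9 passed the filter on low counts that left 16206 genes for testing. Levels are given as CPM, a gene's count scaled to the size of its library, with library sizes adjusted by edgeR's trimmed mean of M values.

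The study asked, as far as its labels show, how loss of Ripk3, Mlkl or Casp8, genes of the necroptotic and apoptotic cell death pathways, changes neutrophils that lack Ptpn6, the gene of the tyrosine phosphatase SHP-1. The 25 libraries came from female mice of 6 to 13 weeks on a C57BL/6J background, and the cells were collected at the boundary between the 68% and 78% layers of a Percoll gradient with a 52% layer on top. The mark ∆PMN in a label stands for a deletion directed to neutrophils, polymorphonuclear cells, and the labels used here name no Cre driver, whereas the alleles written -/- are knockouts of the whole animal. There were 3 libraries of Ripk3-/- Ptpn6∆PMN with 3 of Ripk3-/- as their partner, 2 of Mlkl-/- Ptpn6∆PMN with 3 of Mlkl-/-, and 3 of Ripk3-/- Mlkl-/- Ptpn6∆PMN with 2 of Ripk3-/- Mlkl-/-. Deletion of Casp8 was added in 2 libraries of Casp8∆PMN Mlkl-/- Ptpn6∆PMN and 2 of Ripk3-/- Mlkl-/- Casp8∆PMN Ptpn6∆PMN. A single library of Casp8∆PMN Ptpn6∆PMN, from a mouse labelled as inflamed, and 3 libraries of wild type mice completed the groups, and every mouse other than that one was labelled as not inflamed. One further library, whose title and genotype label name different genotypes, entered no comparison. The labels do not say that the libraries of a group came from separate mice, so p-values measure the spread between these libraries, which may be technical.

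Red cells arise in the same marrow as neutrophils. GATA1 and KLF1 are the transcription factors that switch on the erythroid programme, the erythropoietin receptor EPOR carries the survival signal of early erythroid cells, and ALAS2 starts haem synthesis. Late erythroblasts fill with alpha and beta globin and build a membrane around band 3, the product of Slc4a1, while carbonic anhydrases 1 and 2 (Car1, Car2) convert carbon dioxide and bicarbonate.

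Promoter windows of 4 of the genes are shown because GATA1 binds GATA motifs and KLF1 binds CACCC motifs, so that both regulators among these genes could be set beside the genes they are known to control. The sequences are the 250 bases before the annotated start in RefSeq GRCm38.p6, written 5′ to 3′ on the gene's strand, and capitals mark GATAA and CACCC or their reverse complements TTATC and GGGTG, where neighbouring matches may adjoin. Klf1 lies on the plus strand at chr8:84901982-84905291 and its window is chr8:84901732-84901981. The Alas2 window is chrX:150547167-150547416, before the gene at chrX:150547417-150570622, plus strand. Hba-a1 and Hba-a2 both lie on the plus strand, at chr11:32283672-32284486 and chr11:32296492-32297310, with windows at chr11:32283422-32283671 and chr11:32296242-32296491.
Klf1: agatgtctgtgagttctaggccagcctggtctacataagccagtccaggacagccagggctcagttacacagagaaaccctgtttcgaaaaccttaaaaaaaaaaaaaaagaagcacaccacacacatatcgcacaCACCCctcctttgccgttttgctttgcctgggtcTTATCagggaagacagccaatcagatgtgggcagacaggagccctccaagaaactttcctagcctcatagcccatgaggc
Alas2: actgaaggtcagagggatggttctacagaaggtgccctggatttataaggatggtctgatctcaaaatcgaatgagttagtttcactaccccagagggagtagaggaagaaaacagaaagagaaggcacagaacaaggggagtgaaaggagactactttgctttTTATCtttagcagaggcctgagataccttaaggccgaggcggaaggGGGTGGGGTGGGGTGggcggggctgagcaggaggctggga
Hba-a1: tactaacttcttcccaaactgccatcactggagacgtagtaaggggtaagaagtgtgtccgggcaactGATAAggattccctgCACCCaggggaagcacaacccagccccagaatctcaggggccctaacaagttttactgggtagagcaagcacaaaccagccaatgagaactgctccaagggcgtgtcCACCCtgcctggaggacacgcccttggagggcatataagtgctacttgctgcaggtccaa
Hba-a2: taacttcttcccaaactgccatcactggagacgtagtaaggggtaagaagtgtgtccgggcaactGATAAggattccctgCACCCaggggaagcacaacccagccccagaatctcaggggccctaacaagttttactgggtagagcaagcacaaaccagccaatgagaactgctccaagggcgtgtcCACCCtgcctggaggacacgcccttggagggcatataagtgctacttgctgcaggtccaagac
Of the 6 genes with an entry in the RefSeq promoter table, 5 held GATAA and 6 held CACCC on either strand, and the window without GATAA was that of Gata1. The Gata1 window, chrX:7967911-7968160 on the minus strand, lies inside the span annotated for the gene, chrX:7959260-7976663, and not before it. Over all 27025 promoters of the same length, 23% held GATAA, 51.3% held CACCC and 10.0% held both. A match describes the letters and not a bound site. The Hba-a1 and Hba-a2 windows share a run of 247 bases, offset by 3. Their longest open reading frames, 429 bases each, differ at 1 base, so reads may have been divided between the 2 genes and their separate values are uncertain.

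The RNA of these genes was present in every library, at levels that moved over a wide range beside a neutrophil signal. Library totals lay between 21598063 and 23187557 counts. The summed level of the neutrophil marker list ran from 61140 to 146100 CPM, with no listed gene at 0 in any library, and the 9 erythroid genes summed to 460.2 to 6763 CPM, with a median of 2782 CPM. Hba-a1 and Hba-a2 together took 0.0346% to 0.630% of a library's counts, and with the beta globin genes Hbb-bs and Hbb-bt the share was 0.0549% to 1.007%. In bulk libraries, fewer cells of a type and less RNA per cell cannot be told apart. Ptpn6 followed the labels, averaging between 188 and 293 CPM in the groups of 2 or 3 libraries labelled Ptpn6∆PMN and 120.2 CPM in the single Casp8∆PMN Ptpn6∆PMN library, against 547 to 614 CPM in the groups without that deletion.

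**Figure D1:**
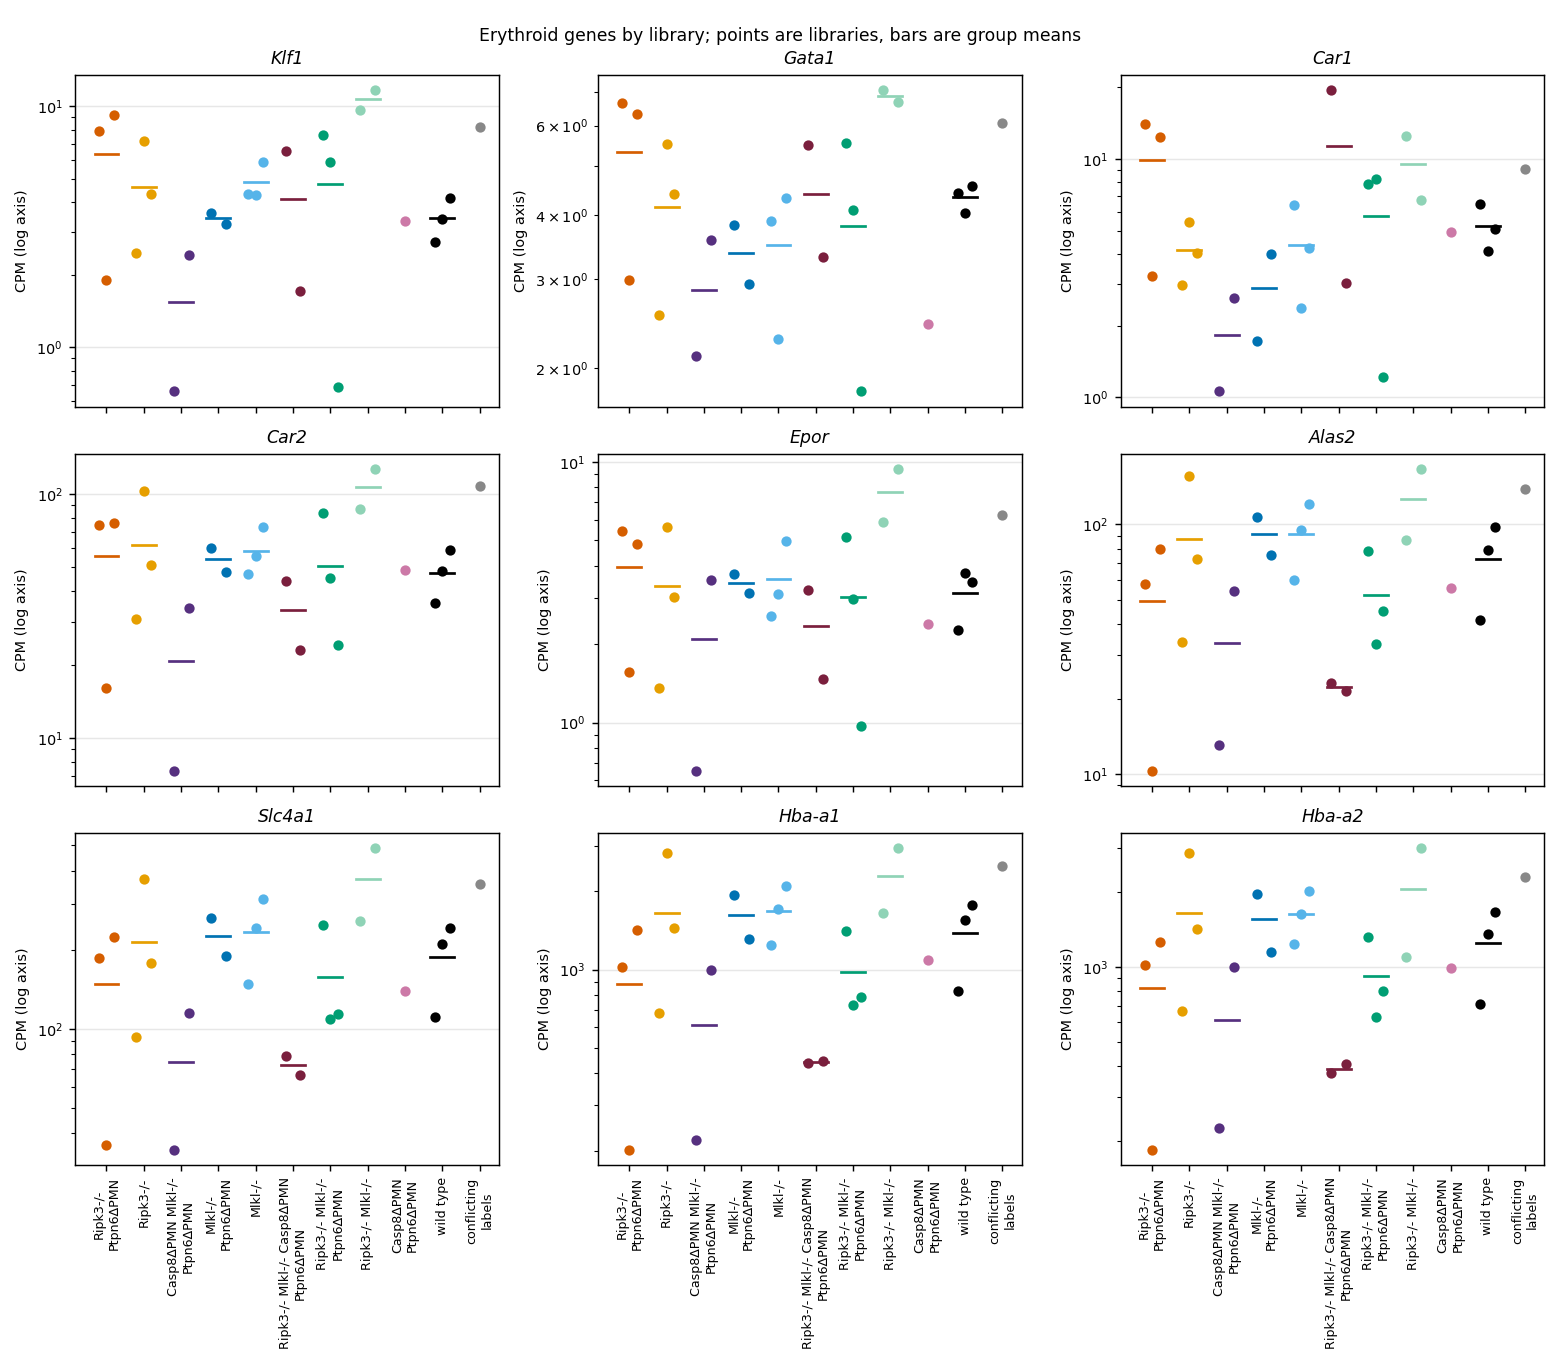
CPM on a log axis for the 9 erythroid genes, with a point for each of the 25 libraries and a bar for each group mean. Both libraries of Ripk3-/- Mlkl-/- sit high for most genes, replicate 1 of Casp8∆PMN Mlkl-/- Ptpn6∆PMN and replicate 2 of Ripk3-/- Ptpn6∆PMN sit low, and the libraries of most groups spread widely.

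The regulators came first in the order of the lineage. Klf1 ran from 0.655 to 11.7 CPM, a 17.9-fold range, on 13 to 276 counts a library, so counting error is part of its lowest values. Klf1 averaged 10.7 ± 1.49 CPM in Ripk3-/- Mlkl-/- (SD, n = 2), 6.32 ± 3.88 in Ripk3-/- Ptpn6∆PMN (n = 3), 4.83 ± 0.915 in Mlkl-/- (n = 3) and 4.74 ± 3.62 in Ripk3-/- Mlkl-/- Ptpn6∆PMN (n = 3). Lower means were 4.64 ± 2.36 CPM in Ripk3-/- (n = 3), 4.10 ± 3.39 in Ripk3-/- Mlkl-/- Casp8∆PMN Ptpn6∆PMN (n = 2), 3.43 ± 0.263 in Mlkl-/- Ptpn6∆PMN (n = 2), 1.54 ± 1.25 in Casp8∆PMN Mlkl-/- Ptpn6∆PMN (n = 2) and 3.44 ± 0.715 in wild type (n = 3). Both Ripk3-/- Mlkl-/- libraries lay above every library of the next group, and the only other groups next to each other by mean without overlap were Mlkl-/- Ptpn6∆PMN and Casp8∆PMN Mlkl-/- Ptpn6∆PMN. The largest spread inside a group was 11.2-fold, in Ripk3-/- Mlkl-/- Ptpn6∆PMN, whose 3 libraries held 7.63, 5.90 and 0.682 CPM.

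Gata1, at chrX:7959260-7976663, moved over the narrowest range of the 9, 3.92-fold, from 1.80 to 7.06 CPM. Its highest group was again Ripk3-/- Mlkl-/-, at 7.06 and 6.67 CPM. The next group, Ripk3-/- Ptpn6∆PMN, held 6.65, 2.98 and 6.34 CPM, so the groups did not overlap but nearly touched. The lowest group was Casp8∆PMN Mlkl-/- Ptpn6∆PMN, at 2.12 and 3.58 CPM. Wild type libraries held 4.43, 4.04 and 4.57 CPM. GATA1 also serves mast cells, basophils, eosinophils and megakaryocytes, so lists of their markers were read beside it. The eosinophil list summed to 39.0 to 133 CPM and the basophil and mast cell list to 109 to 819 CPM, while the megakaryocyte list ran from 84.0 to 149 CPM with its defining gene Pf4 between 0 and 1.45 CPM. Their part in the Gata1 level was not tested.

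Epor, the erythropoietin receptor gene at chr9:21958897-21963576, ran from 0.655 to 9.43 CPM on 13 to 222 counts. The 2 Ripk3-/- Mlkl-/- libraries held 5.90 and 9.43 CPM and lay above every library of the next group, Ripk3-/- Ptpn6∆PMN, at 5.42, 1.56 and 4.87 CPM. Wild type libraries held 2.27, 3.74 and 3.46 CPM.

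Car1 and Car2, carbonic anhydrase genes at chr3:14766214-14808365 and chr3:14886269-14900770, did not share an order of groups. Car2 ran from 7.36 to 127 CPM and was highest in Ripk3-/- Mlkl-/-, at 86.8 and 127 CPM, with 7.36 and 34.1 CPM in Casp8∆PMN Mlkl-/- Ptpn6∆PMN at the low end and 35.6, 48.2 and 59.0 CPM in wild type. Car1 ran from 1.06 to 19.6 CPM on 21 to 431 counts, and its highest mean was in Ripk3-/- Mlkl-/- Casp8∆PMN Ptpn6∆PMN, whose 2 libraries held 19.6 and 3.03 CPM. That mean rests on 1 library. The next groups were Ripk3-/- Ptpn6∆PMN, at 14.0, 3.22 and 12.4 CPM, and Ripk3-/- Mlkl-/-, at 12.5 and 6.71 CPM, while wild type libraries held 6.46, 4.12 and 5.08 CPM. No step in the order of groups was free of overlap for Car1 or Car2.

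Alas2, Slc4a1 and the alpha globin genes, which serve haem, membrane and haemoglobin of the maturing red cell, had nearly the same order of libraries. Alas2 ran from 10.3 to 168 CPM. Its mean was 127 ± 57.3 CPM in Ripk3-/- Mlkl-/- (SD, n = 2), 92.0 ± 30.8 in Mlkl-/- (n = 3), 91.2 ± 21.9 in Mlkl-/- Ptpn6∆PMN (n = 2), 87.5 ± 62.5 in Ripk3-/- (n = 3) and 52.0 ± 23.3 in Ripk3-/- Mlkl-/- Ptpn6∆PMN (n = 3). It was 49.3 ± 35.5 CPM in Ripk3-/- Ptpn6∆PMN (n = 3), 33.5 ± 29.0 in Casp8∆PMN Mlkl-/- Ptpn6∆PMN (n = 2), 22.3 ± 1.12 in Ripk3-/- Mlkl-/- Casp8∆PMN Ptpn6∆PMN (n = 2) and 72.7 ± 28.6 in wild type (n = 3). The ranges of all neighbouring groups overlapped. Slc4a1, at chr11:102348820-102365281, ran from 34.7 to 489.6 CPM, Hba-a1 from 203 to 2945 CPM and Hba-a2 from 185 to 2999 CPM. For each of these 4 genes the mean was highest in Ripk3-/- Mlkl-/- and lowest in Ripk3-/- Mlkl-/- Casp8∆PMN Ptpn6∆PMN, whose 2 libraries lay close together: 436 and 447 CPM for Hba-a1 and 23.1 and 21.5 CPM for Alas2. Other groups were wide, with Ripk3-/- Ptpn6∆PMN holding 1021, 203 and 1422 CPM of Hba-a1 and Ripk3-/- holding 682, 2823 and 1445 CPM.

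The single Casp8∆PMN Ptpn6∆PMN library, from the mouse labelled as inflamed, held 3.33 CPM of Klf1, 2.44 of Gata1, 2.39 of Epor, 4.94 of Car1 and 48.8 of Car2. It held 55.8 CPM of Alas2, 139 of Slc4a1, 1087 of Hba-a1 and 994 of Hba-a2. With no replicate it was not tested, and 8 of these 9 values lay inside the range of the wild type libraries, Gata1 being the exception and lower.

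Across libraries Alas2, Slc4a1, Hba-a1 and Hba-a2 moved together most tightly, and Car1 followed them least. Over the 24 libraries with a group, log2 levels of Alas2, Slc4a1, Hba-a1 and Hba-a2 had pairwise Pearson r of 0.969 to 0.995. For Alas2 with Hba-a1, r was 0.995 and Spearman's rho 0.99, each with a two-sided permutation p of 1e-05, the smallest 100000 permutations can give, and adjusted p over the 36 pairs of 2e-05 and 2.12e-05. Without the 2 libraries farthest from the median of Alas2, r was 0.994. The regulators formed pairs with Epor and with each other: Klf1 with Epor had r = 0.918 and rho = 0.827 (permutation adjusted p = 2e-05 and 2.12e-05), and Klf1 with Gata1 had r = 0.869 and rho = 0.858 (permutation adjusted p = 2e-05 and 2.12e-05). Without the farthest 2 libraries these were 0.874 and 0.814. Car2 followed Slc4a1 (r = 0.928, rho = 0.92), Epor (r = 0.927, rho = 0.896) and Klf1 (r = 0.897, rho = 0.867). Epor also followed Slc4a1 (r = 0.845, rho = 0.836). Each of these pairs had permutation adjusted p of 2e-05 and 2.12e-05, and r without the farthest 2 was 0.888, 0.937, 0.883 and 0.761. Car1 followed Gata1 (r = 0.815, rho = 0.844, permutation adjusted p = 2e-05 and 2.12e-05, r = 0.746 without the farthest 2). Car1 and Hba-a2 had r = 0.122 and rho = 0.0887 (permutation adjusted p = 0.569 and 0.679), the weakest of the 36 pairs, with r = 0.129 without the farthest 2. With group means removed, over 23 libraries, r was 0.993 for Alas2 with Hba-a1, 0.919 for Klf1 with Gata1 and 0.305 for Car1 with Hba-a2. The genes of a pair share each library and its depth.

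**Figure D2:**
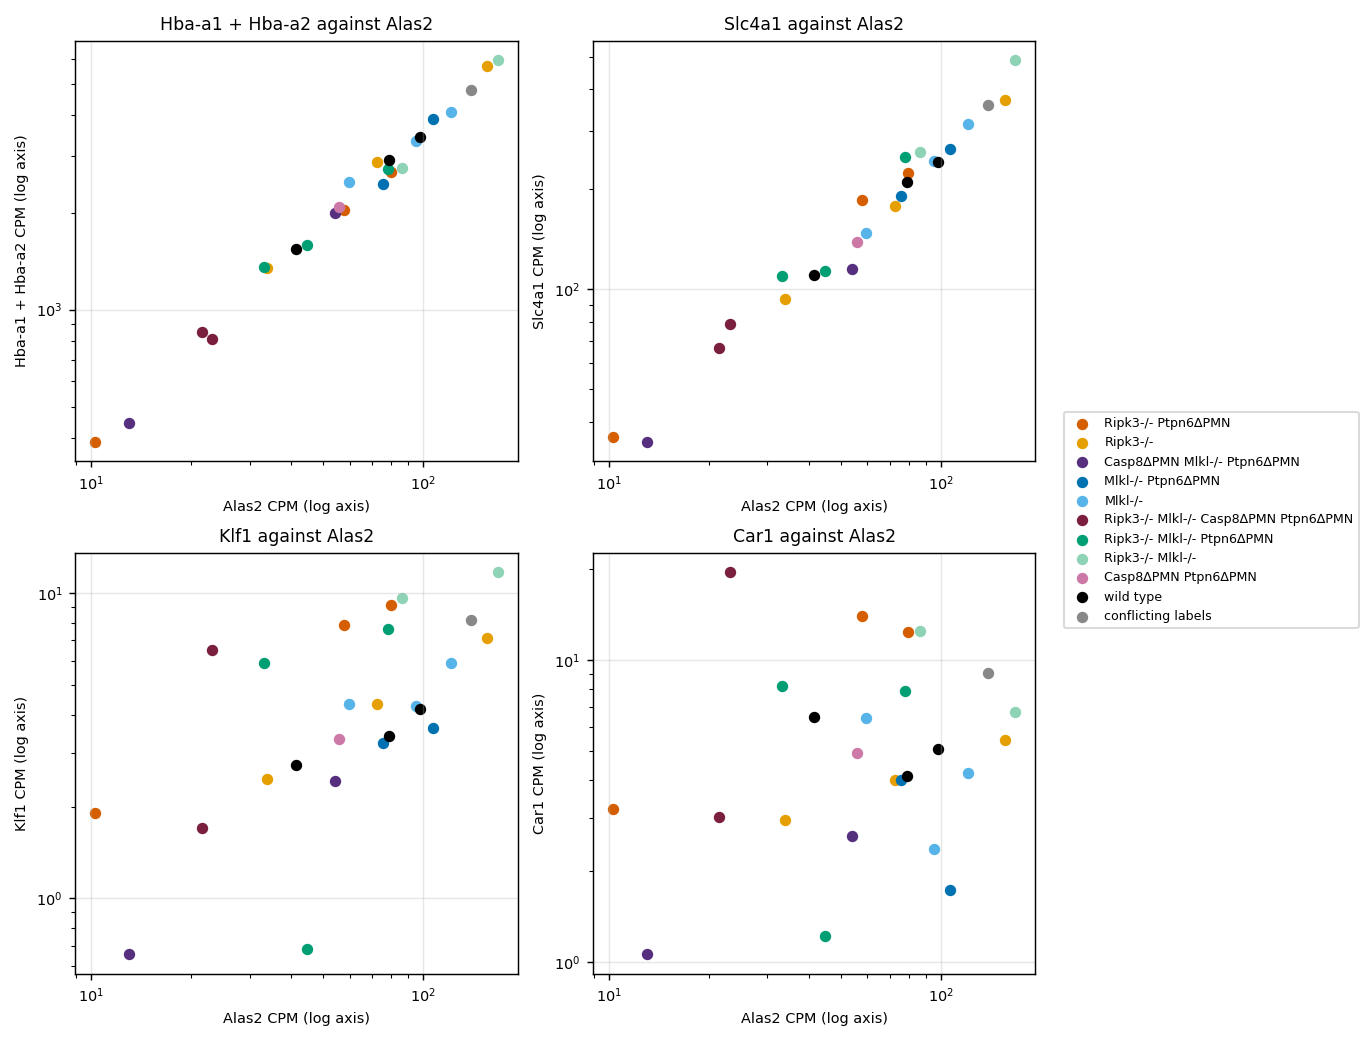
CPM of 4 erythroid readouts against Alas2 CPM, both on log axes, with a point for each of the 25 libraries coloured by group. Hba-a1 plus Hba-a2 and Slc4a1 follow Alas2 along a narrow line, Klf1 follows it loosely, and Car1 scatters, with its highest library at an Alas2 level of 23.1 CPM.

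Ratios between these genes within a library do not depend on how the library was scaled. Hba-a1 and Hba-a2 counts together came to between 31.8 and 41.6 per Alas2 count over the 25 libraries, a 1.31-fold range beside the 16.3-fold range of Alas2 itself. Slc4a1 counts per Alas2 count ran from 2.13 to 3.49, a 1.64-fold range. Klf1 counts per 1000 Alas2 counts ran from 15.2 to 282 (18.5-fold), Gata1 from 23.9 to 289 (12.1-fold), Epor from 21.7 to 152 (6.98-fold) and Car1 from 16.2 to 848 (52.5-fold). Against Alas2, Klf1, Gata1, Epor and Car1 thus ranged more widely than Slc4a1 and alpha globin, called late genes here together with Alas2. Low counts are part of these ranges, down to 13 for Klf1 and Epor and 21 for Car1 in a library. Car2 was not set against Alas2 in this way. Hba-a2 made up 39.9% to 50.7% of the alpha globin counts, with the lowest share in replicate 2 of Ripk3-/- Mlkl-/-.

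In Ripk3-/- Ptpn6∆PMN libraries, Car1 counts per 1000 Alas2 counts were 242, 313 and 156, against 87.1, 34.9 and 55.4 in Ripk3-/-. Klf1 counts per 1000 Alas2 counts were 136, 185 and 115 in Ripk3-/- Ptpn6∆PMN, against 72.5, 45.7 and 59.5 in Ripk3-/-. The groups did not overlap in either ratio. Nor did they in counts of Gata1, Epor or Slc4a1 per Alas2 count, all higher in Ripk3-/- Ptpn6∆PMN, so this was not particular to Car1 and Klf1. Slc4a1, a late gene, had 3.20, 3.49 and 2.805 counts per Alas2 count, against 2.755, 2.38 and 2.45 in Ripk3-/-. The alpha globin counts per Alas2 count overlapped. All these ratios share the Alas2 count, and Alas2 was lowest of the 25 libraries in replicate 2 of Ripk3-/- Ptpn6∆PMN. No share of all genes that would separate in the same way was computed. By CPM all 9 genes overlapped between these groups, where 9.2% of all genes did not. In the other backgrounds the Car1 ratios overlapped, at 16.2 and 53.0 in Mlkl-/- Ptpn6∆PMN, against 108, 24.9 and 35.0 in Mlkl-/-, and at 101, 248 and 27.2 in Ripk3-/- Mlkl-/- Ptpn6∆PMN, against 144 and 40.1 in Ripk3-/- Mlkl-/-. The Mlkl-/- Ptpn6∆PMN libraries went the other way for Klf1, at 33.8 and 42.8, against 72.4, 44.9 and 48.6 in Mlkl-/-. In Ripk3-/- Mlkl-/- Ptpn6∆PMN the Klf1 ratios were 97.7, 178 and 15.2, on both sides of the 111 and 70.0 of Ripk3-/- Mlkl-/-. These ratios were chosen after their values were seen and were not tested.

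**Figure D3:**
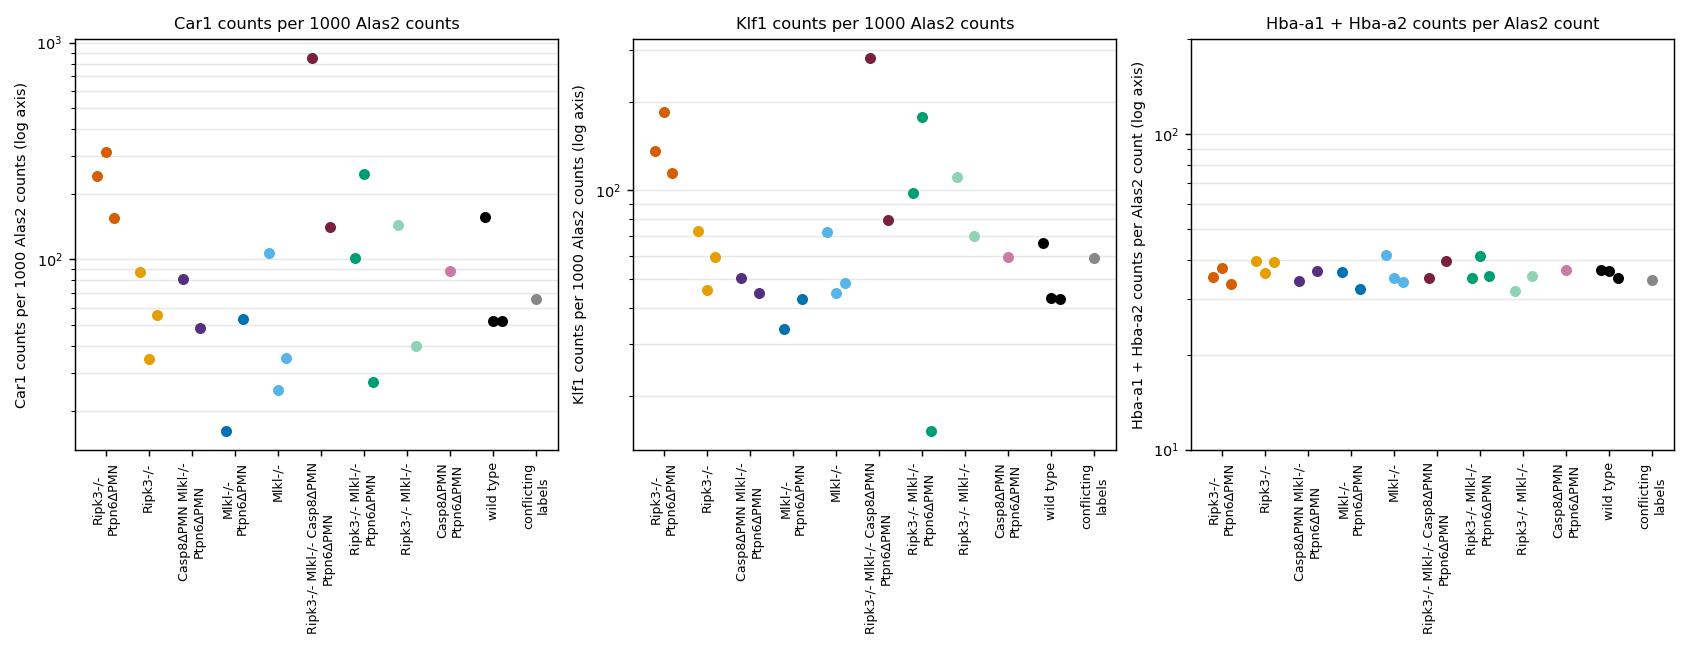
Counts of Car1 and of Klf1 per 1000 Alas2 counts, and counts of Hba-a1 plus Hba-a2 per Alas2 count, on log axes, with a point for each of the 25 libraries. The alpha globin ratio is nearly level at 31.8 to 41.6, while the Car1 ratio runs from 16.2 to 848.

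Replicates of 1 group differed widely in these genes. The biological coefficient of variation that edgeR estimated had a median of 0.505 over the 9 genes, against 0.195 over the genes tested. Variation between replicates made up 47.1% (Hba-a1) to 62.6% (Epor) of each gene's variance in log2 level over 23 libraries, with a median of 53.5%, and the median over all genes tested was 52.2%. In a test of any difference among the 9 groups of 2 or 3 libraries, 0 of the 9 genes passed an edgeR quasi-likelihood adjusted p of 0.05, where 1.58% of the 16206 genes did. The lowest adjusted p was 0.256, and 0 of the 9 were under 0.05 before adjustment, where 22% of all genes were, with the lowest of the 9 at 0.07. Without the filter on low counts 7 of the 9 were under 0.05 before adjustment, beside 4332 of 26930 genes, and 0 were called. DESeq2's likelihood-ratio test put 3 of the 9 under 0.05 before adjustment, beside 4858 genes among the 16206 that passed the filter. DESeq2 called 0 of the 9 in each of the 12 comparisons.

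By group mean, 8 of the 9 genes were highest in Ripk3-/- Mlkl-/-, and Car1 was highest in Ripk3-/- Mlkl-/- Casp8∆PMN Ptpn6∆PMN. Klf1 held 9.62 and 11.7 CPM in the 2 Ripk3-/- Mlkl-/- libraries, against 2.74, 3.41 and 4.17 CPM in the 3 wild type libraries. Epor held 5.90 and 9.43 CPM in Ripk3-/- Mlkl-/-, against 2.27, 3.74 and 3.46 CPM in wild type. Car2 held 86.8 and 127 CPM in Ripk3-/- Mlkl-/-, against 35.6, 48.2 and 59.0 CPM in wild type. In all 3 genes every Ripk3-/- Mlkl-/- library was above every wild type library. Klf1 had a log2 change of 1.63 (SE 0.70, 95% interval 0.16 to 3.11, edgeR adjusted p = 0.295), Epor a log2 change of 1.28 (SE 0.65, 95% interval -0.082 to 2.64, edgeR adjusted p = 0.388) and Car2 a log2 change of 1.17 (SE 0.62, 95% interval -0.14 to 2.47, edgeR adjusted p = 0.418). With all 9 groups in the fit, 0 of the 9 genes were called, where 1.04% of all genes were, and only Klf1 was under 0.05 before adjustment. The call depended on which libraries set the spread. With only the Ripk3-/- Mlkl-/- and wild type libraries fitted, Klf1 (log2 change 1.62, SE 0.21, edgeR adjusted p = 0.00422), Car2 (1.16, SE 0.21, edgeR adjusted p = 0.0164) and Epor (1.27, SE 0.27, edgeR adjusted p = 0.0293) were called, 3 of the 9, where 5.49% of the 15174 genes tested in that fit were. In that fit 8 of the 9 were under 0.05 before adjustment, beside 3513 of the 15174 genes.

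All 9 genes had a log2 change above 0 in Ripk3-/- Mlkl-/-, from 0.66 to 1.63 with a median of 0.87, while the median over all genes tested was -0.033. Gata1 (log2 change 0.66, SE 0.41) and Slc4a1 (log2 change 1.00, SE 0.64) were among the 6 genes whose groups did not overlap, with Klf1, Car1, Car2 and Epor. That count stands beside 40.2% of all genes, with 2 libraries against 3. Most of the 9 moved together across libraries, so counts of direction or overlap, here and below, are not 9 separate results. Alas2 held 86.5 and 167 CPM in Ripk3-/- Mlkl-/-, against 41.4, 78.9 and 97.7 CPM in wild type, and the groups overlapped, as they did for Hba-a1 and Hba-a2. Hba-a1 held 1651 and 2945 CPM in Ripk3-/- Mlkl-/-, against 828, 1557 and 1770 CPM in wild type. With Hba-a1 and Hba-a2 summed before the fit, their log2 change was 0.73 (standard error 0.67, edgeR adjusted p = 0.665).

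The single knockouts had smaller median log2 changes over wild type, and the difference from Ripk3-/- Mlkl-/- was not tested. In Ripk3-/-, 7 of the 9 genes had a log2 change above 0, from -0.34 (Car1) to 0.43 (Klf1) with a median of 0.25, and all 9 groups of values overlapped wild type, where 19.3% of all genes did not overlap. That direction rested on single libraries: without replicate 2 of Ripk3-/-, 0 of the 9 were above 0 with a median of -0.38, and without wild type replicate 1, 3 were, with a median of -0.014. In Mlkl-/-, 7 of the 9 were above 0, from -0.31 (Gata1) to 0.49 (Klf1) with a median of 0.30, which was 0.053 without wild type replicate 1 and 0.091 without replicate 3 of Mlkl-/-. Klf1 was the 1 gene without overlap there, at 4.32, 4.28 and 5.88 CPM in Mlkl-/- against 2.74, 3.41 and 4.17 CPM in wild type, where 31.3% of all genes did not overlap. None of the 9 were called in Ripk3-/- (lowest edgeR adjusted p = 0.974, 0.228% of all genes called) or in Mlkl-/- (lowest edgeR adjusted p = 0.666, 1.16% of all genes called), and 0 were under 0.05 before adjustment. The 3 comparisons share the same wild type libraries.

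**Figure D4:**
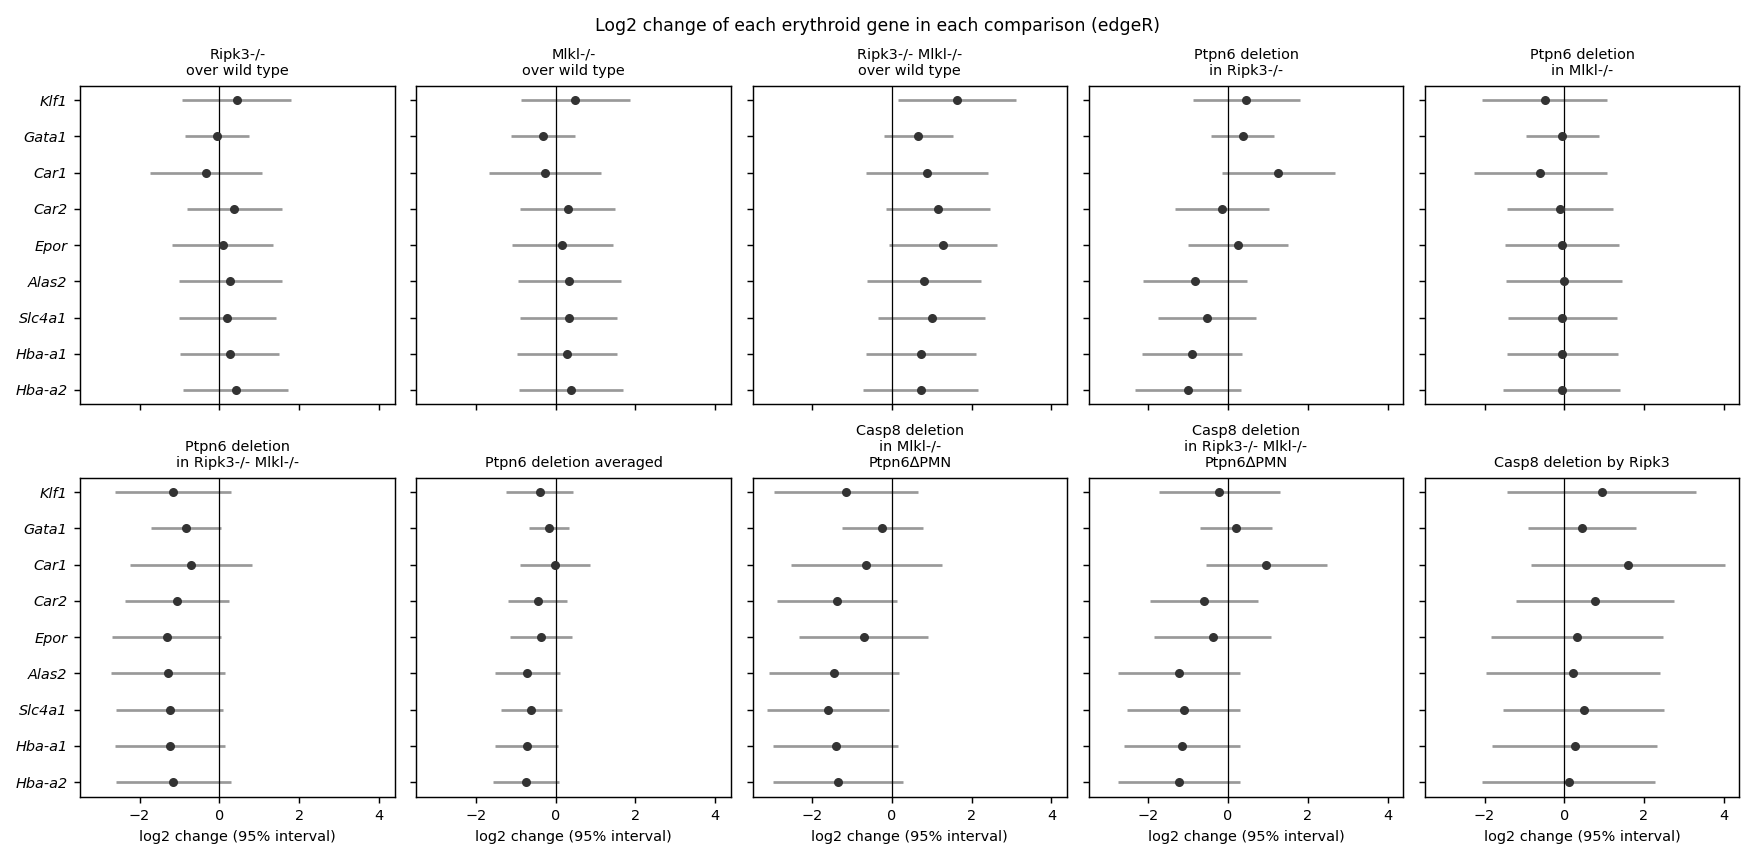
Log2 change of each of the 9 erythroid genes in 10 comparisons, with points for edgeR's estimates and lines for 95% intervals. The intervals of Klf1 in Ripk3-/- Mlkl-/- over wild type and of Slc4a1 for Casp8 deletion in Mlkl-/- Ptpn6∆PMN leave 0 out, and the others include it.

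Deletion of Ptpn6 was compared within each background. In the Ripk3-/- Mlkl-/- background the 9 genes lay lower, by a median log2 change of -1.16 with a range of -1.32 to -0.72, and the median over all genes was 0.029. Without replicate 3 of Ripk3-/- Mlkl-/- the median of the 9 was -0.77. Hba-a1 held 1412, 733 and 786 CPM in Ripk3-/- Mlkl-/- Ptpn6∆PMN, against 1651 and 2945 CPM in Ripk3-/- Mlkl-/-. Slc4a1 held 249, 109 and 114 CPM in Ripk3-/- Mlkl-/- Ptpn6∆PMN, against 258 and 489.6 CPM in Ripk3-/- Mlkl-/-. The groups did not overlap for 7 of the 9 genes, all but Car1 and Hba-a2, where 13.4% of all genes did not. Epor had a log2 change of -1.32 (SE 0.65, 95% interval -2.68 to 0.045, edgeR adjusted p = 0.846), and Gata1 a log2 change of -0.84 (standard error 0.42, edgeR adjusted p = 0.846). For Slc4a1 the log2 change was -1.25 (SE 0.64) and for Hba-a1 -1.23 (SE 0.66), both with an edgeR adjusted p of 0.846. Hba-a1 and Hba-a2 summed had a log2 change of -1.20 (standard error 0.67, edgeR adjusted p = 0.846). None of the 9 were called, where 0.00617% of all genes were, and 0 of the 9 were under 0.05 before adjustment. Alternative fits put more of the 9 under 0.05 before adjustment, with 0 called. The counts were 2 by DESeq2 (beside 847 of 16202 genes) and 4 with only the libraries compared (266 of 14862 genes). Without the filter on low counts 6 were under it (1179 of 26930 genes). The comparison uses the same 2 Ripk3-/- Mlkl-/- libraries that were high against wild type. The macrophage list lay lower beside the 9 (0 of 12 tested genes above 0, median log2 change -1.30, 0 called), with sums of 491, 531 and 690.3 CPM in Ripk3-/- Mlkl-/- Ptpn6∆PMN, against 706 and 835 CPM in Ripk3-/- Mlkl-/- and no listed gene at 0. The B cell list lay higher (12 of 12 tested genes above 0, median log2 change 0.56, 0 called), with sums of 2214, 1507 and 486 CPM in Ripk3-/- Mlkl-/- Ptpn6∆PMN, against 751 and 1206 CPM in Ripk3-/- Mlkl-/-. Their part in the erythroid levels was not tested.

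In the Ripk3-/- background 4 of the 9 log2 changes were above 0, with a median of -0.15. Car1 held 14.0, 3.22 and 12.4 CPM in Ripk3-/- Ptpn6∆PMN, against 2.95, 5.44 and 4.02 CPM in Ripk3-/-, a log2 change of 1.26 (SE 0.67, 95% interval -0.15 to 2.67, edgeR adjusted p = 0.973). Klf1, Gata1 and Epor were also above 0, at log2 changes of 0.45, 0.36 and 0.26, and Car2 was at -0.15. Slc4a1, Hba-a2, Hba-a1 and Alas2 lay below 0, with Hba-a1 at a log2 change of -0.90 (SE 0.60, 95% interval -2.16 to 0.35, edgeR adjusted p = 1) and Alas2 at a log2 change of -0.82 (SE 0.62). Every gene overlapped between the groups, where 9.2% of all genes did not, and 0 of the 9 were called or under 0.05 before adjustment, where 0.0185% of all genes were called. The signs rested on single libraries and no difference between the genes was tested: without replicate 2 of Ripk3-/-, 6 of the 9 were above 0 with a median of 0.44, and without replicate 2 of Ripk3-/- Ptpn6∆PMN, 5 were, with a median of 0.29. Replicate 2 of Ripk3-/- Ptpn6∆PMN was the lowest library of the group for all 9 genes, at 10.3 CPM of Alas2.

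In the Mlkl-/- background the changes were small. All 9 log2 changes lay between -0.60 and -0.011, with a median of -0.054, and Hba-a1 held 1935 and 1313 CPM in Mlkl-/- Ptpn6∆PMN, against 1249, 1711 and 2090 CPM in Mlkl-/-. Without replicate 3 of Mlkl-/-, 7 of the 9 were above 0 with a median of 0.12, and without replicate 2 of Mlkl-/- Ptpn6∆PMN, 7 were, with a median of 0.13. With a replicate block 4 of the 9 were above 0. The intervals were wide, reaching for Alas2 from -1.46 to 1.44, so sizeable changes in either direction lay inside them. Klf1 alone did not overlap, where 35.7% of all genes did not, and 0 of the 9 were called or under 0.05 before adjustment, where 1.51% of all genes were called. Averaged over the 3 backgrounds, all 9 log2 changes were below 0, with a median of -0.45 that became -0.25 without replicate 2 of Ripk3-/-, and Hba-a1 had a log2 change of -0.73 (SE 0.37, 95% interval -1.51 to 0.053, edgeR adjusted p = 0.362). Alas2 had an averaged log2 change of -0.71 (standard error 0.39, edgeR adjusted p = 0.4). None of the 9 were called there, where 1.55% of all genes were, and 0 were under 0.05 before adjustment. Without the filter on low counts 3 were under it, beside 2924 of 26930 genes. The macrophage list lay lower in the same averaged comparison (1 of 12 tested genes above 0, median log2 change -1.20), and its genes Cd163, a haemoglobin scavenger receptor (log2 change -1.17, SE 0.29, edgeR adjusted p = 0.0453), and Fcna, a ficolin (log2 change -1.57, SE 0.34, edgeR adjusted p = 0.0279), fell. Their part in the erythroid levels was not tested. The test of whether the change differs among backgrounds called 0 of the 9 (lowest edgeR adjusted p = 0.791) and 0% of all genes, so the changes in the 3 backgrounds were not shown to differ.

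Deletion of Casp8 was compared in 2 backgrounds that already lacked Ptpn6 in neutrophils. In Casp8∆PMN Mlkl-/- Ptpn6∆PMN, Slc4a1 held 34.7 and 115 CPM, against 263 and 190.1 CPM in Mlkl-/- Ptpn6∆PMN, a log2 change of -1.60 (SE 0.73, 95% interval -3.13 to -0.066, edgeR adjusted p = 0.509) that was under 0.05 only before adjustment. Alas2 held 13.0 and 54.1 CPM in Casp8∆PMN Mlkl-/- Ptpn6∆PMN, against 107 and 75.8 CPM in Mlkl-/- Ptpn6∆PMN, a log2 change of -1.44 (standard error 0.78, edgeR adjusted p = 0.594). Car2 held 7.36 and 34.1 CPM in Casp8∆PMN Mlkl-/- Ptpn6∆PMN, against 60.0 and 48.0 CPM in Mlkl-/- Ptpn6∆PMN, a log2 change of -1.38 (standard error 0.71, edgeR adjusted p = 0.575). All 9 genes lay below 0, with a median log2 change of -1.35, and 6 of the 9 did not overlap, where 41% of all genes did not, 2 libraries standing against 2. Without replicate 1 of Casp8∆PMN Mlkl-/- Ptpn6∆PMN the median was -0.64 and 2 of the 9 were above 0, and without replicate 2 the median was -2.71. The edgeR test called 0 of the 9 and 0% of all genes, with 1 of the 9 under 0.05 before adjustment. DESeq2 also called 0 of the 9, with 2 under 0.05 before adjustment. With only the libraries compared in the fit, 5 were under it, beside 1350 of 13919 genes. Without the filter on low counts 5 were, beside 1605 of 26930 genes. Replicate 1 of Casp8∆PMN Mlkl-/- Ptpn6∆PMN was the lowest of all 25 libraries for Klf1, Car1, Car2, Epor and Slc4a1.

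In Ripk3-/- Mlkl-/- Casp8∆PMN Ptpn6∆PMN the late genes lay lower and Car1 did not. Alas2 held 23.1 and 21.5 CPM in Ripk3-/- Mlkl-/- Casp8∆PMN Ptpn6∆PMN, against 78.1, 33.1 and 44.8 CPM in Ripk3-/- Mlkl-/- Ptpn6∆PMN, a log2 change of -1.22 (SE 0.73, 95% interval -2.75 to 0.30, edgeR adjusted p = 0.864). Hba-a1 held 436 and 447 CPM in Ripk3-/- Mlkl-/- Casp8∆PMN Ptpn6∆PMN, against 1412, 733 and 786 CPM in Ripk3-/- Mlkl-/- Ptpn6∆PMN, a log2 change of -1.15 (standard error 0.69, edgeR adjusted p = 0.864). These 2 genes, Slc4a1 and Hba-a2 did not overlap, 4 of the 9, where 14.8% of all genes did not. Over the 9 genes the median log2 change was -0.60, with 2 of the 9 above 0. It was -0.046 without replicate 1 of Ripk3-/- Mlkl-/- Ptpn6∆PMN, -1.15 without replicate 1 of Ripk3-/- Mlkl-/- Casp8∆PMN Ptpn6∆PMN and -0.21 without replicate 2 of Ripk3-/- Mlkl-/- Casp8∆PMN Ptpn6∆PMN. Car1 held 19.6 and 3.03 CPM in Ripk3-/- Mlkl-/- Casp8∆PMN Ptpn6∆PMN, against 7.90, 8.23 and 1.22 CPM in Ripk3-/- Mlkl-/- Ptpn6∆PMN, a log2 change of 0.96 (standard error 0.72, edgeR adjusted p = 0.866), which became -0.94 without replicate 1 of Ripk3-/- Mlkl-/- Casp8∆PMN Ptpn6∆PMN. None of the 9 were called, as for 0% of all genes, and 0 were under 0.05 before adjustment by edgeR or DESeq2 with all 9 groups in the fit. With only the libraries compared in the fit, 4 of the 9 were under 0.05 before adjustment, beside 289 of 14732 genes, and 0 were called. The difference between the Casp8 changes of the 2 backgrounds also called 0 of the 9 (lowest edgeR adjusted p = 0.656), where 0.00617% of all genes were called. Replicate 1 of Ripk3-/- Mlkl-/- Casp8∆PMN Ptpn6∆PMN, which set the Car1 mean, was also highest of the 25 libraries in the neutrophil progenitor list, whose sums were 611 and 344 CPM in Ripk3-/- Mlkl-/- Casp8∆PMN Ptpn6∆PMN, against 138, 269 and 170.2 CPM in Ripk3-/- Mlkl-/- Ptpn6∆PMN. Their part in the Car1 level was not tested.

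Other genes of the red cell followed the same libraries. Over the 25 libraries, genes outside the 9 with among the highest Pearson r to their mean centred log2 level were Rhag (r = 0.983), Ank1 (r = 0.982), Cldn13 (r = 0.980), Rhd (r = 0.975) and Ermap (r = 0.974). Rhag and Rhd encode proteins of the Rh complex, and Ank1 encodes the ankyrin of the red cell membrane skeleton. These 5 were in the list of 20 red cell membrane genes. That list had 19 of 20 log2 changes above 0 in Ripk3-/- Mlkl-/- over wild type, with a median of 0.91. With Ptpn6 deleted in the Ripk3-/- Mlkl-/- background 0 of 20 were above 0, with a median of -1.09, and with Casp8 deleted in the Mlkl-/- Ptpn6∆PMN background 0 of 20, with a median of -1.33. None of the 20 were called in any of the 12 comparisons.

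The other erythroid lists had medians nearer 0 than that of the membrane list in Ripk3-/- Mlkl-/- over wild type. Of 8 globin and chaperone genes listed only 3 were tested, and these 3 were above 0 there with a median log2 change of 0.73 and 0 called. Of 15 erythroid enzyme genes tested, 14 were above 0 there with a median log2 change of 0.67, and 0 were called. Of 11 haem synthesis genes, 8 were above 0 in Ripk3-/- Mlkl-/- over wild type with a median log2 change of 0.48, and 0 were called. Of 11 erythroid transcription factor genes tested, 7 were above 0 with a median of 0.23, and of 10 erythropoietin signalling genes 7, with a median of 0.16. None of either list were called. Of 7 iron uptake genes tested, 6 were above 0 in Ripk3-/- Mlkl-/- over wild type with a median log2 change of 0.31. In that comparison 1 of the 7 was called and rose: Slc25a37, the mitochondrial iron importer mitoferrin (log2 change 0.99, SE 0.19, edgeR adjusted p = 0.0192). Slc25a37 also rose in Mlkl-/- over wild type (log2 change 0.78, SE 0.18, edgeR adjusted p = 0.0345), together with Trf, the gene of the iron carrier transferrin (log2 change 1.09, SE 0.21, edgeR adjusted p = 0.0164). These were 2 of 7 tested iron uptake genes, where 1.16% of all genes were called. Over that list 3 of 7 were above 0, with a median log2 change of -0.29. One of 15 erythroid enzyme genes tested rose when Ptpn6 was deleted in the Mlkl-/- background: Gclm, a subunit of the enzyme that starts glutathione synthesis (log2 change 1.15, SE 0.27, edgeR adjusted p = 0.0442). No erythroid list had a called gene in the other comparisons with a fold change.

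Markers of other cells moved beside the high Ripk3-/- Mlkl-/- levels. The basophil and mast cell list summed to 205 and 151 CPM in Ripk3-/- Mlkl-/-, against 761, 676 and 739 CPM in wild type. Its genes Gata2 (log2 change -1.91, SE 0.41, edgeR adjusted p = 0.0298) and Ms4a2 (log2 change -1.75, SE 0.41, edgeR adjusted p = 0.0463) fell. In the megakaryocyte list Clec1b (log2 change -3.19, SE 0.48, edgeR adjusted p = 0.00261) and Itga2b (log2 change -1.40, SE 0.28, edgeR adjusted p = 0.0213) fell, while its sums were 116 and 108 CPM in Ripk3-/- Mlkl-/-, against 124, 140.1 and 125 CPM in wild type. Over the megakaryocyte list, 4 of 11 tested genes were above 0 in Ripk3-/- Mlkl-/- (median log2 change -0.13), 2 of 11 in Ripk3-/- (-0.28) and 7 of 11 in Mlkl-/- (0.15). Clec1b also fell in Ripk3-/- over wild type (log2 change -3.51, SE 0.41, edgeR adjusted p = 0.00017) and in Mlkl-/- over wild type (log2 change -2.83, SE 0.40, edgeR adjusted p = 0.00108). The macrophage list lay higher beside the 9 erythroid genes in Ripk3-/- Mlkl-/- over wild type (12 of 12 tested genes above 0, median log2 change 0.71), with sums of 706 and 835 CPM in Ripk3-/- Mlkl-/-, against 509.5, 495 and 546 CPM in wild type. Of that list the iron exporter gene Slc40a1 rose (log2 change 0.62, SE 0.14, edgeR adjusted p = 0.0368). The macrophage list also lay higher in Mlkl-/- over wild type (12 of 12 tested genes above 0, median log2 change 0.78). In the monocyte list 1 of 9 tested genes rose, and 3 of 9 were above 0 with a median log2 change of -0.1. The neutrophil progenitor list summed to 263 and 95.5 CPM in Ripk3-/- Mlkl-/-, against 555, 471 and 413 CPM in wild type, and the neutrophil list to 104000 and 69390 CPM in Ripk3-/- Mlkl-/-, against 81860, 92610 and 88340 CPM in wild type. Their part in the erythroid levels was not tested.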

How the data were processed

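Per the labels, RNA of Percoll-separated neutrophils was sequenced as paired reads of 100 bases. The authors deposited estimated counts per gene, which need not be whole (24.9% were not). Salmon 0.14.1, DESeq2 and GRCm38.p6 are named in the submitters' processing notes, without their roles. The estimated counts were rounded and tested with edgeR 4.0.16 (quasi-likelihood F test, TMM scaling, filterByExpr with minimum count 10 and total 15, Benjamini-Hochberg over 16206 genes, threshold 0.05) in 1 fit of 23 libraries in 9 groups, leaving 14 residual degrees of freedom. No libraries of 1 group held identical values. CPM used the same scaling over 25 libraries, and correlations used log2(CPM + 1). Intervals cover the fit's error only. The edgeR fit was tested on simulated counts for 1 comparison, Ptpn6 deletion in the Mlkl-/- background. DESeq2 1.42.0, other scalings and filters, a replicate block and left-out libraries were alternatives. The 9 genes and the lists were chosen with earlier results of these data known. Beside the 9, the text names list genes called in a comparison (at most 4 per list) and genes among the 6 closest to the mean of the 9, of which 1 is not reported here. Promoters came from RefSeq, GRCm38.p6. Same-numbered libraries did not deviate together in every pair, so no block was used in the fit reported.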

Additional observations from a re-analysis of the deposited data

Results flagged for a closer look

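One library was left out of every comparison because its title names the Ripk3 and Mlkl double knockout and its genotype label names Mlkl-/- Ptpn6∆PMN. It drew attention because all 9 erythroid genes were above the highest wild type library in it. Klf1 held 8.17 CPM there, against at most 4.17 CPM in a wild type library, and Gata1 held 6.06 CPM, against at most 4.57 CPM. Epor held 6.24 CPM, against at most 3.74 CPM. Car1 held 9.09 CPM and Car2 107.9 CPM, against at most 6.46 and 59.0 CPM in wild type. Alas2 held 138.9 CPM, against at most 97.7 CPM, and Slc4a1 held 357.6 CPM, against at most 241 CPM. Hba-a1 held 2499 CPM and Hba-a2 2284 CPM, against at most 1770 and 1656 CPM in wild type. These are values of 1 library, with no test.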

How the results depend on the processing

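The count of erythroid genes called was 0 of 9 in each of the 12 comparisons under DESeq2 size factors, scaling without globin genes, no filter, DESeq2's own tests and Hba-a1 and Hba-a2 summed. It was also 0 (0 to 0) in the comparisons that involve a library when that library was left out. The exception was the fit of only the libraries compared, which called 3 of 9 (Klf1, Car2 and Epor, with log2 changes of 1.62, 1.16 and 1.27) in Ripk3-/- Mlkl-/- over wild type and 0 of 9 in the other comparisons it was run for. CPM on plain library totals moved no gene's median level by more than the spread between replicates. With a replicate block the count was 0 of 9 in each of the 12 comparisons, and the shared numbers were not shown to pair the libraries. Car1 for Casp8 deletion in the Ripk3-/- Mlkl-/- Ptpn6∆PMN background lay between -0.94 and 1.75 over the fits that left out a library, the negative value being the one without replicate 1 of Ripk3-/- Mlkl-/- Casp8∆PMN Ptpn6∆PMN. Of 90 changes of the 9 genes, 36 turned sign in at least 1 fit that left out a library and 4 under another alternative, none of them called. DESeq2 called more genes over the whole table, 2594 of 13062 for any group difference against 256 of 16206 by edgeR, the rest of the genes having no adjusted p. The limits are the 2 or 3 libraries a group, the wide spread between replicates and, for Klf1, Epor and Car1, counts as low as 13, 13 and 21 in a library.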
